A study of Mus musculus with 10 samples.

Results

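The Prdm genes encode regulators of transcription that carry a PR domain, a relative of the SET domain of histone methyltransferases, in most members together with zinc fingers that bind DNA. Some members methylate histones themselves, and others recruit histone methyltransferases, deacetylases or other corepressors. In the early mouse embryo Prdm1 and Prdm14 are needed to set aside the primordial germ cells, and in mouse embryonic stem cells Prdm14 helps to hold the undifferentiated state and represses the de novo DNA methyltransferase gene Dnmt3b. The 9 members described here are Prdm1, Prdm2, Prdm4, Prdm6, Prdm9, Prdm10, Prdm14, Prdm15 and Prdm16. They were found by their gene names in the scanner files and have 12 of the array's 55681 non-control probes, with 2 probes each for Prdm2, Prdm9 and Prdm15.

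The RNA of mouse embryonic stem cells was read on 10 arrays with 1 colour, in a series on expression when overexpressed PRDM14 lowers DNA methylation. The group PRDM14 (2 arrays) is line JP-23, which stably expresses Prdm14 in a wild-type background. The group PRDM14_DNMT3B (2 arrays) is line JP-23+3b-3, which stably expresses both Prdm14 and Dnmt3b1. The group Dnmt3b_KO (2 arrays) is the Dnmt3b-/- line 8bb, the group Dnmt1_KO (1 array) the Dnmt1-/- line 36, and the group TKO (1 array) the Dnmt1-/-Dnmt3a-/-Dnmt3b-/- line 19-1. The group J1 (2 arrays) is the wild-type line J1. All lines grew without feeder cells in serum with LIF. Each group is 1 cell line, the replicates are not stated to be separate cultures, and p-values therefore measure only the spread between arrays, which may be technical. The sources used here do not name the promoters that drive the transgenes.

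Levels are given as log2 of a probe's signal relative to the 75th percentile of its array, so that 0 stands for a signal at that percentile. Levels of different probes are not comparable with each other. The 75th percentile lay between 242.6 and 336.6 intensity units, 50.03% to 56.03% of spots were well above background, and replicates correlated at 0.995 to 0.998 across probes. All 8 embryonic stem cell markers were well above background on every array, and 6 of them, among them Pou5f1 and Sox2, fell in Dnmt1_KO (by 0.78 and 0.94 log2 units, limma adjusted p = 0.00855 and 0.0105). In Dnmt1_KO 26.4% of all tested probes changed. Probes well above background on all 10 arrays had a median difference from J1 of -0.213 log2 units there, against -0.71 for the 8 markers. The marker genes were not run under other scalings. The Dnmt1 probe was at -2.67 in Dnmt1_KO and at -3.15 in TKO, against 1.63 and 1.30 in J1. The Dnmt3b probe was at 1.63 and 1.70 in Dnmt3b_KO and at 2.00 in TKO, against 7.61 and 7.57 in J1, and the Dnmt3a probe was at -6.37 in TKO, not well above background, against -0.17 and -0.33 in J1. Both PRDM14 arrays had a slide to themselves (3 and 4), and in comparisons with that line the slide and the line cannot be told apart. The other groups shared slides 1 and 2.

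Of the 12 member probes, 6 had at least 1 group with all its arrays well above background and were tested, 1 each for Prdm1, Prdm2, Prdm4, Prdm10, Prdm14 and Prdm15. The other 6 were not. The 6 tested probes are shown because each value below is the signal of this short stretch of a transcript and of no other part. Each probe is 60 bases long, and its first 30 bases are printed 5′ to 3′ with the position of the whole probe on mm9, per the file headers. Exon and intron positions on mm9 were not used here.
Prdm14, chr1:13103555-13103614, minus strand: ggaagactggcaattcttgttgatgtctaa
Prdm1, chr10:44157089-44157148, minus strand: gttggttggtttgtttgtttgttttttcct
Prdm2, chr4:142721880-142721939, minus strand: ttcatccttgaggaattctagtcccgtaag
Prdm4, chr10:85355190-85355249, minus strand: gacctagaacattaacagtgttgagataat
Prdm10, chr9:31186064-31186123, plus strand: agtacatcatcacaaccaccaccaatggca
Prdm15, chr16:98059182-98059241, minus strand: tggtccgtttgagtccaggagagtcgccaa

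In the line labelled PRDM14, 1 of the 6 tested member probes rose (Prdm1) and 1 fell (Prdm14), while 38.1% of all 33100 tested probes changed in that comparison. The count of 2 in 6 lies close to that share. The median difference of the 6 members was -0.06 log2 units, against -0.028 over all tested probes. Prdm2, Prdm4, Prdm10 and Prdm15 did not pass the test against J1 in this line, with differences from -0.44 to 0.46 log2 units.

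Prdm14, which in mouse recruits the Polycomb repressive complex and works with the corepressor Cbfa2t2, had levels of -4.31 and -4.02 in PRDM14. It was at -6.34 and -6.42 in PRDM14_DNMT3B, where it was not well above background on either array. It was at 1.19 and 1.15 in Dnmt3b_KO, at 0.20 in Dnmt1_KO and at 0.86 in TKO, against -0.07 and 0.09 in J1. The arrays of both lines that carry the Prdm14 transgene lay far below all others, and those of Dnmt3b_KO and TKO lay above J1, with no overlap of groups.

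**Figure D1:**
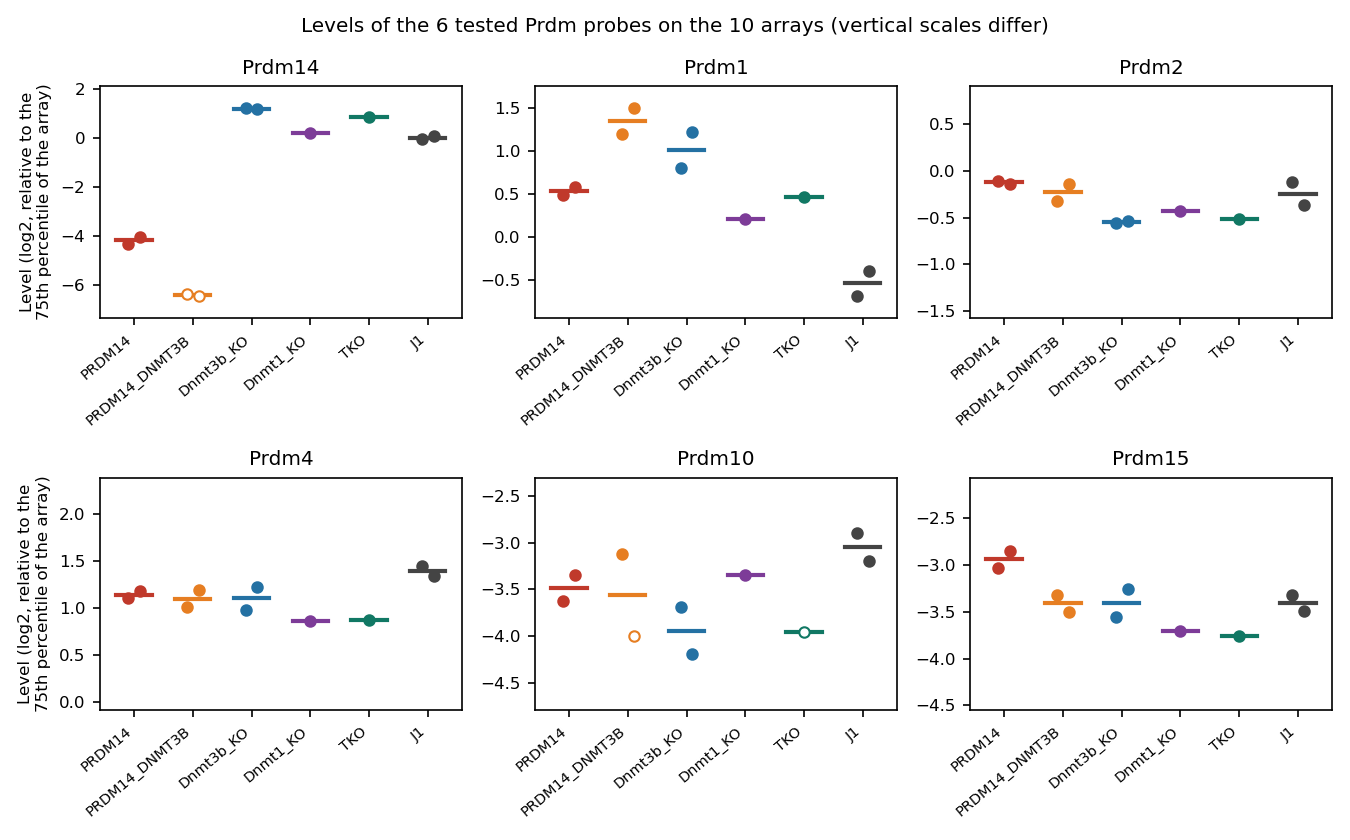
Levels of the 6 tested Prdm probes (log2, relative to the 75th percentile of the array) on each array, by group; horizontal lines are group means, open circles are arrays where the probe was not well above background, and the vertical scales differ between panels. Prdm14 lies at -4.31 and -4.02 in PRDM14, against -0.07 and 0.09 in J1, and Prdm1 is lowest in J1.

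Prdm14 was 18.1-fold lower in PRDM14 than in J1 (-4.18 log2 units, SE 0.13, limma adjusted p = 3.12e-05). In PRDM14_DNMT3B it was at least 16.9-fold lower than in J1 (limma adjusted p = 2.97e-05), a lower bound because the probe was not well above background there: the bound sets J1 against the probe's own signal or the lowest signal of any probe well above background, whichever was higher on the array. A normexp background correction adds an offset to every signal, which weighs most on dim ones. With it the differences from J1 shrank to -2.24 in PRDM14 and -2.62 in PRDM14_DNMT3B and both calls held. Per the file annotation the probe starts at base 2487 of the transcript. The sources used here do not say which part of Prdm14 the transgene holds, so the probe checks neither the label PRDM14 nor the expression of the transgene, and these values describe only transcripts that contain the probe.

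In PRDM14_DNMT3B against PRDM14, where 19.4% of tested probes changed, 1 of the 6 members rose (Prdm1) and 1 fell (Prdm14). The Prdm14 difference was -2.21 log2 units (limma adjusted p = 0.000922), but no fold is given because the bound on it is under 1. It was -0.37 with the normexp correction. Against Dnmt3b_KO, Prdm14 was 40.4-fold lower in PRDM14 (-5.33, SE 0.13, limma adjusted p = 1.82e-05) and at least 37.6-fold lower in PRDM14_DNMT3B (limma adjusted p = 1.53e-05). With the normexp correction these differences were -3.26 and -3.63.

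Among the methyltransferase knockouts the Prdm14 probe moved the other way or did not pass. In Dnmt3b_KO, 2 of 6 members rose (Prdm14 and Prdm1) and 0 fell, while 19.5% of tested probes changed, and 4 members reached no call (Prdm2, Prdm4, Prdm10 and Prdm15, with differences from -0.89 to 0.00). Prdm14 was 2.23-fold higher there (1.16 log2 units, SE 0.13, limma adjusted p = 0.00392). Within slides 1 and 2 the difference between Dnmt3b_KO and J1 was 1.26 and 1.06. In TKO, 2 of 6 members rose (the same 2 genes) and 0 fell, against 26.8% of tested probes changed, and Prdm14 was 1.79-fold higher (0.84, SE 0.16, limma adjusted p = 0.0134). In Dnmt1_KO, Prdm14 differed from J1 by 0.19 log2 units (95% interval -0.19 to 0.58, limma adjusted p = 0.41). The single arrays of Dnmt1_KO and TKO take their spread from the replicated groups. In order of mean level the groups ran Dnmt3b_KO, TKO, Dnmt1_KO and J1, with PRDM14 and PRDM14_DNMT3B below them. The order of the last 2 is not set, since the probe was not well above background in PRDM14_DNMT3B. The neighbours Dnmt1_KO and J1 in this order did not pass the test of their difference, and the differences among the 3 knockouts were not tested.

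**Figure D2:**
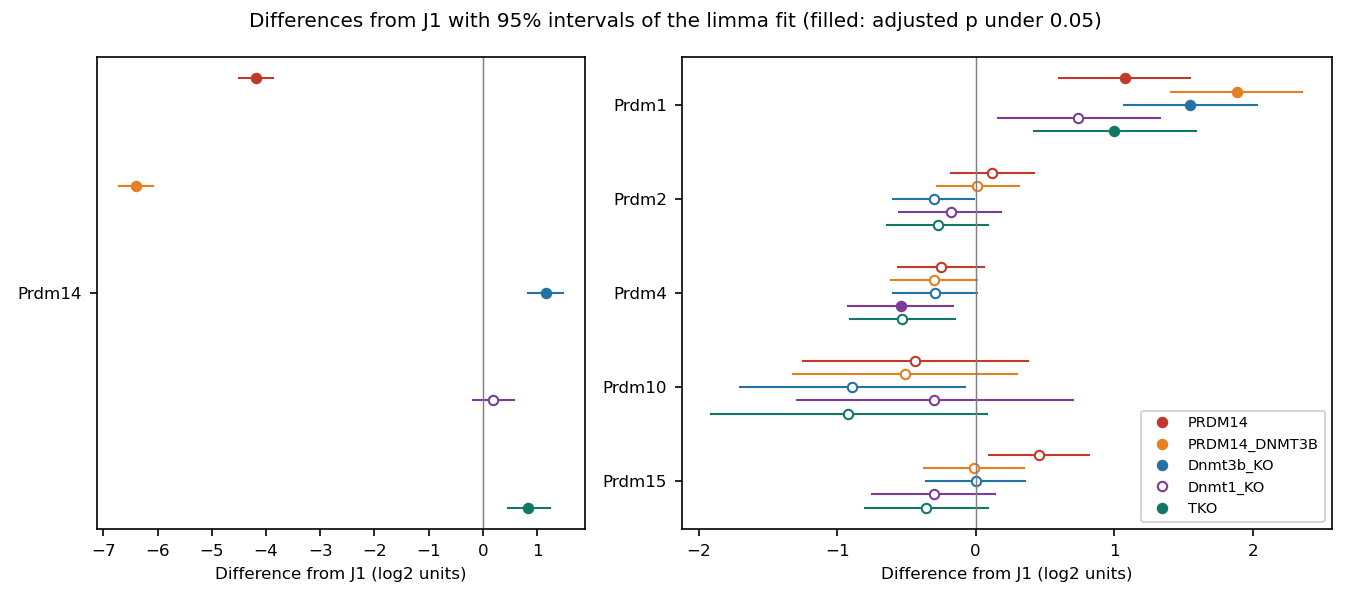
Differences from J1 (log2 units) of the 6 tested Prdm probes in the 5 other groups, with 95% intervals from the limma fit; filled circles passed an adjusted p of 0.05, the left panel has its own scale for Prdm14, and its PRDM14_DNMT3B point comes from a probe not well above background there. Prdm14 lies left of 0 in PRDM14 and PRDM14_DNMT3B and right of 0 in Dnmt3b_KO and TKO, and Prdm1 lies right of 0 in all 5 groups.

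Prdm1, which encodes Blimp1, a repressor that drives plasma cell differentiation and germ cell specification, had its lowest levels in J1. Its levels were 0.49 and 0.59 in PRDM14, 1.20 and 1.50 in PRDM14_DNMT3B, 0.81 and 1.23 in Dnmt3b_KO, 0.21 in Dnmt1_KO and 0.47 in TKO, against -0.68 and -0.39 in J1. None of the 8 arrays of the other groups overlapped with J1. Prdm1 was 3.70-fold higher in PRDM14_DNMT3B than in J1 (1.89 log2 units, SE 0.19, limma adjusted p = 0.000969), where 1 of 6 members rose and Prdm14 alone fell, and where 38.4% of tested probes changed. It was 2.93-fold higher in Dnmt3b_KO (1.55, SE 0.19, limma adjusted p = 0.00551) and 2.11-fold higher in PRDM14 (1.08, SE 0.19, limma adjusted p = 0.00772). These comparisons share the J1 arrays. Within slides 1 and 2, Prdm1 differed from J1 by 1.88 and 1.89 in PRDM14_DNMT3B and by 1.48 and 1.62 in Dnmt3b_KO.

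In TKO, Prdm1 was 2.00-fold higher than in J1 (1.00, SE 0.24, limma adjusted p = 0.0287), a call that ended without PRDM14 replicate 1 or 2 (adjusted p = 0.0578 each), without J1 replicate 1 (0.0833) and without a filter on dim probes (0.0689). In Dnmt1_KO the difference of 0.74 missed the threshold (SE 0.24, 95% interval 0.16 to 1.33, limma adjusted p = 0.0684), and it passed in 4 of 16 alternatives. One of these has the slide as a block, with Dnmt1_KO and J1 replicate 1 on the same slide (0.91, limma adjusted p = 0.0204). Prdm1 was 1.75-fold higher in PRDM14_DNMT3B than in PRDM14 (0.81, SE 0.19, limma adjusted p = 0.0376). The threshold was missed in 5 of 17 alternatives, with any 1 of the 4 arrays compared left out (adjusted p 0.0678 to 0.163) and without a filter on dim probes (0.0904). Against Dnmt3b_KO it differed by -0.47 in PRDM14 (limma adjusted p = 0.112, or 0.0201 with the replicate number as a block) and by 0.34 in PRDM14_DNMT3B (adjusted p = 0.261, or 0.0432 with the slide as a block). The order of mean levels was PRDM14_DNMT3B, Dnmt3b_KO, PRDM14, TKO, Dnmt1_KO and J1, and neither PRDM14_DNMT3B and Dnmt3b_KO nor Dnmt3b_KO and PRDM14, neighbours in it, passed the test in the fit without a block.

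Markers of other cell types moved between the same groups. Their levels are summed here on a linear scale, in units of the 75th percentile. The 8 embryonic stem cell markers summed to 617 to 629 in PRDM14, 568 to 578 in PRDM14_DNMT3B, 468 to 473 in Dnmt3b_KO, 308 in Dnmt1_KO and 430.4 in TKO, against 449 to 471 in J1. In PRDM14 Esrrb, Zfp42 and Nanog rose (1.40, 0.96 and 0.57 log2 units) and Lin28a fell (-0.34), while 4 did not pass. In PRDM14_DNMT3B Esrrb, Zfp42 and Sox2 rose (1.46, 1 and 0.47) and Utf1 fell (-0.64), while 4 did not pass. Over all tested probes 38.1% and 38.4% changed in these lines. The 5 measured genes of the 2-cell embryo, such as Zscan4c, summed to 84.3 to 96.1 in PRDM14, 68.7 to 75.5 in PRDM14_DNMT3B, 0.396 to 0.397 in Dnmt3b_KO, 17.9 in Dnmt1_KO and 7.41 in TKO, against 0.618 to 0.711 in J1. They were all well above background in PRDM14, PRDM14_DNMT3B and Dnmt1_KO, and 4 were in TKO, against 2 in Dnmt3b_KO and 2 in J1. The 6 trophoblast markers summed to 7.46 to 7.83 in PRDM14, 10.8 to 11.2 in PRDM14_DNMT3B, 211 to 224 in Dnmt3b_KO, 246 in Dnmt1_KO and 46.2 in TKO, against 126 to 133 in J1. All 6 were well above background on every array except that of TKO, which had 5. The keratins Krt8 and Krt18 made up 84.9% to 99.4% of this sum, and the other 4 markers summed to 1.13 to 1.18 in PRDM14, 1.24 to 1.40 in PRDM14_DNMT3B, 1.30 to 1.43 in Dnmt3b_KO, 2.11 in Dnmt1_KO and 0.688 in TKO, against 1.94 to 1.96 in J1. Single markers went against the total: Hand1 rose by 1.96 log2 units in PRDM14 (limma adjusted p = 0.000847), Tfap2a rose by 1.59 in PRDM14_DNMT3B (limma adjusted p = 0.000518), and Gata3 fell by 1.10 in Dnmt3b_KO (limma adjusted p = 0.00919). The 6 fibroblast markers summed to 1.24 to 1.32 in PRDM14, 1.56 to 2.01 in PRDM14_DNMT3B and 9.41 to 9.48 in Dnmt3b_KO, against 3.57 to 3.97 in J1, with 3 or 4 of 6 well above background in both transgenic lines and 5 in the other groups. Dnmt1_KO and TKO had fibroblast sums of 7.68 and 7.26. In Dnmt3b_KO Col1a1 and Col1a2 rose by 3.71 and 3.47 log2 units (limma adjusted p = 0.000176 and 0.00278), while Col3a1, Dcn and Thy1 did not pass. Col1a1 and Col1a2 differed from J1 by 2.47 and 3.24 in Dnmt1_KO and by 1.99 and 2.80 in TKO. Thy1 was also higher than in J1, by 0.40 in Dnmt1_KO and 0.62 in TKO, while Col3a1 and Dcn differed by -0.71 to -0.16 in these 2 groups. The 6 primitive endoderm markers summed to 2.57 in TKO and to between 0.469 and 0.876 on the arrays of the other groups, J1 included. The part of these markers in the results on Prdm14, Prdm1 and the gene lists below was not tested. More cells of a type and more RNA per cell cannot be told apart in such bulk samples.

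The nearest genes on both sides of Prdm14, and 1 of the 2 beside Prdm1, reached no call against J1. Slco5a1 and Ncoa2 flank Prdm14 on chromosome 1 in the GRCm38.p6 RefSeq table, and neither passed the test against J1 in any of the 5 groups. Ncoa2, a nuclear receptor coactivator, was at 0.12 and 0.21 in PRDM14 and at 0.20 and 0.35 in PRDM14_DNMT3B, against 0.09 and 0.39 in J1. Slco5a1 was well above background on 2 arrays only. Beyond them, Sulf1 fell by 0.52, Tram1 fell by 0.66 and Lactb2 rose by 0.78 log2 units in PRDM14 (limma adjusted p = 0.00456, 0.0121 and 0.00346). Atg5, the autophagy gene next to Prdm1 on chromosome 10, did not pass against J1 in any group, and Prep on the other side passed only in Dnmt3b_KO (0.45, limma adjusted p = 0.0203). Farther from Prdm1, Crybg1 was at -0.86 and -0.94 in PRDM14, against 0.49 and 0.65 in J1, and fell by 1.47 log2 units (limma adjusted p = 0.000211). Bves fell by 0.79 and Rtn4ip1 rose by 0.54 in PRDM14 (limma adjusted p = 0.00643 and 0.0124).

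**Figure D3:**
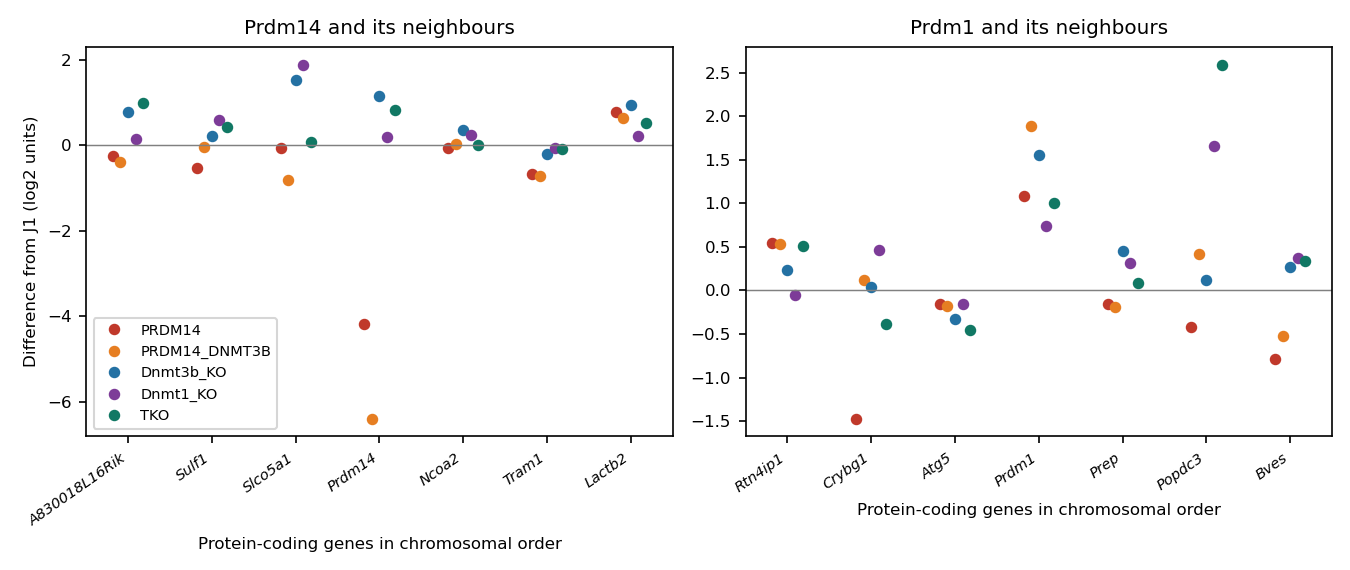
Differences from J1 (log2 units) of Prdm14 (left) and Prdm1 (right) and of 3 protein-coding genes on each side, in chromosomal order, for the 5 other groups. Prdm14 lies at -4.18 in PRDM14, where its neighbour Ncoa2 lies at -0.07, and the Prdm14 point of PRDM14_DNMT3B comes from a probe not well above background there and has only a bound.

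The 250 bases before the Prdm1 start are shown because DNA methylation falls on CG dinucleotides, which are in capitals. They are from RefSeq, build GRCm38.p6, and methylation itself was not measured on these arrays.
Prdm1 upstream, chr10:44458749-44458998, minus strand: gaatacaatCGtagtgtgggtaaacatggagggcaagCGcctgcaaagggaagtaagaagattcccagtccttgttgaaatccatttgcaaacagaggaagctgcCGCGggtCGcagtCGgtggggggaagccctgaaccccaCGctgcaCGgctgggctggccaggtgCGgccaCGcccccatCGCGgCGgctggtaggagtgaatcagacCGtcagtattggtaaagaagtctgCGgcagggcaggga
This stretch has 15 CG dinucleotides, and the window with the 50 bases after the start has 20. Of 32851 such windows in the table, 26.5% have at least as many, and the median is 7. Windows of 6 of the 9 members were used, Prdm1, Prdm4, Prdm9, Prdm10, Prdm15 and Prdm16. Prdm6 was left out of the search. Among the windows used, the richest was 1 of 2 windows of Prdm4 with 40 CG dinucleotides, a count that 3.91% of all windows reach. The poorest was 1 of 2 windows of Prdm10 with 4.

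Prdm4, a partner of the arginine methyltransferase Prmt5 in mouse neural stem cells, varied little. Its levels were 1.11 and 1.18 in PRDM14, 1.01 and 1.19 in PRDM14_DNMT3B, 0.98 and 1.23 in Dnmt3b_KO, 0.86 in Dnmt1_KO and 0.87 in TKO, against 1.45 and 1.34 in J1. J1 was the highest group, and no array of another group overlapped with it. In Dnmt1_KO it was the only member that changed, 0 rose and 1 fell of 6, while 26.4% of tested probes changed. It fell by 0.54 log2 units there (SE 0.15, limma adjusted p = 0.0497), where the median over all tested probes was -0.161. The threshold was missed in 11 of 16 alternatives, with each of the 8 arrays of the replicated groups left out in turn (adjusted p 0.0551 to 0.129) and with the slide as a block (-0.49, adjusted p = 0.0944) among them. In TKO it differed by -0.53 (limma adjusted p = 0.0531, and under the threshold in 5 of 16 alternatives).

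Prdm2, also known as Riz, a member that can methylate histone H3, had levels of -0.11 and -0.14 in PRDM14, -0.32 and -0.14 in PRDM14_DNMT3B, -0.56 and -0.54 in Dnmt3b_KO, -0.43 in Dnmt1_KO and -0.52 in TKO, against -0.12 and -0.37 in J1. It did not pass against J1 in any group. In PRDM14 against Dnmt3b_KO, where 35.3% of tested probes changed, 1 member rose (Prdm2) and 1 fell (Prdm14). Prdm2 was 1.34-fold higher in PRDM14 than in Dnmt3b_KO (0.42, SE 0.12, limma adjusted p = 0.0404), and the threshold was missed in 8 of 17 alternatives, with any of the PRDM14, PRDM14_DNMT3B or Dnmt3b_KO arrays left out (adjusted p 0.0503 to 0.152) among them. In PRDM14_DNMT3B against Dnmt3b_KO, where 29.5% of tested probes changed, 0 members rose and 1 fell (Prdm14).

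Prdm15, which in mouse embryonic stem cells supports the naive state by activating Rspo1 and Spry1, was at -3.03 and -2.85 in PRDM14, -3.32 and -3.50 in PRDM14_DNMT3B, -3.55 and -3.26 in Dnmt3b_KO, -3.70 in Dnmt1_KO and -3.76 in TKO, against -3.32 and -3.49 in J1. Both PRDM14 arrays lay above all others. The difference of 0.46 between PRDM14 and J1 missed the threshold (SE 0.15, limma adjusted p = 0.0537) and passed it in 3 of 17 alternatives. Rspo1 and Spry1, which raise WNT signalling and restrain receptor tyrosine kinase signalling, both fell in PRDM14 (-0.89 and -1.40, limma adjusted p = 0.00937 and 0.00199) and in PRDM14_DNMT3B (-0.72 and -1, limma adjusted p = 0.0198 and 0.00687). In TKO Rspo1 rose by 0.93 (limma adjusted p = 0.0236).

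Prdm10 was near the background. Its probe was at -3.62 and -3.35 in PRDM14, at -3.12 and -4.00 in PRDM14_DNMT3B with the second array not well above background, at -3.69 and -4.19 in Dnmt3b_KO, at -3.35 in Dnmt1_KO and at -3.96 in TKO, not well above background, against -2.90 and -3.20 in J1. It was called in 0 of 8 comparisons. Against J1, with an unadjusted p under 0.05, it was lower only in Dnmt3b_KO (-0.89, SE 0.33, 95% interval -1.70 to -0.08, limma adjusted p = 0.118, or 0.0487 with the slide as a block), and in TKO the difference of -0.92 (limma adjusted p = 0.154) became -1.19 with the slide as a block (0.0416). A further probe without a symbol that the files describe as the Prdm10 gene was well above background on all 10 arrays and was not called against J1 in any group.

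The remaining probes stood at the background. Prdm6, which acts in vascular smooth muscle, and both probes of Prdm9, the meiotic methyltransferase that places recombination hotspots, were well above background on 0 of 10 arrays. Their levels ran from -6.66 to -5.60 for Prdm6 and from -6.51 to -4.13 for Prdm9. Prdm16, a regulator of brown fat and blood stem cells, passed on 1 array, PRDM14_DNMT3B replicate 1 (-3.74, with -4.93 in replicate 2, against -6.50 and -6.09 in J1). The second Prdm2 probe passed on PRDM14_DNMT3B replicate 2 alone (-3.49, with -5.97 in replicate 1, against -6.29 and -5.83 in J1), while the first Prdm2 probe was well above background on all 10 arrays. The second Prdm15 probe passed on PRDM14 replicate 1 and J1 replicate 1 (-4.03 and -4.06) and not on their second arrays (-5.02 and -5.40). None of the 6 had a group with all its arrays above background, and they were left out for that reason. With the filter on dim probes dropped, 1 of their 48 tests passed, Prdm16 in PRDM14_DNMT3B against J1 (1.96 log2 units, SE 0.45, limma adjusted p = 0.0362), in which 3 of the 4 arrays were not well above background.

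**Figure D4:**
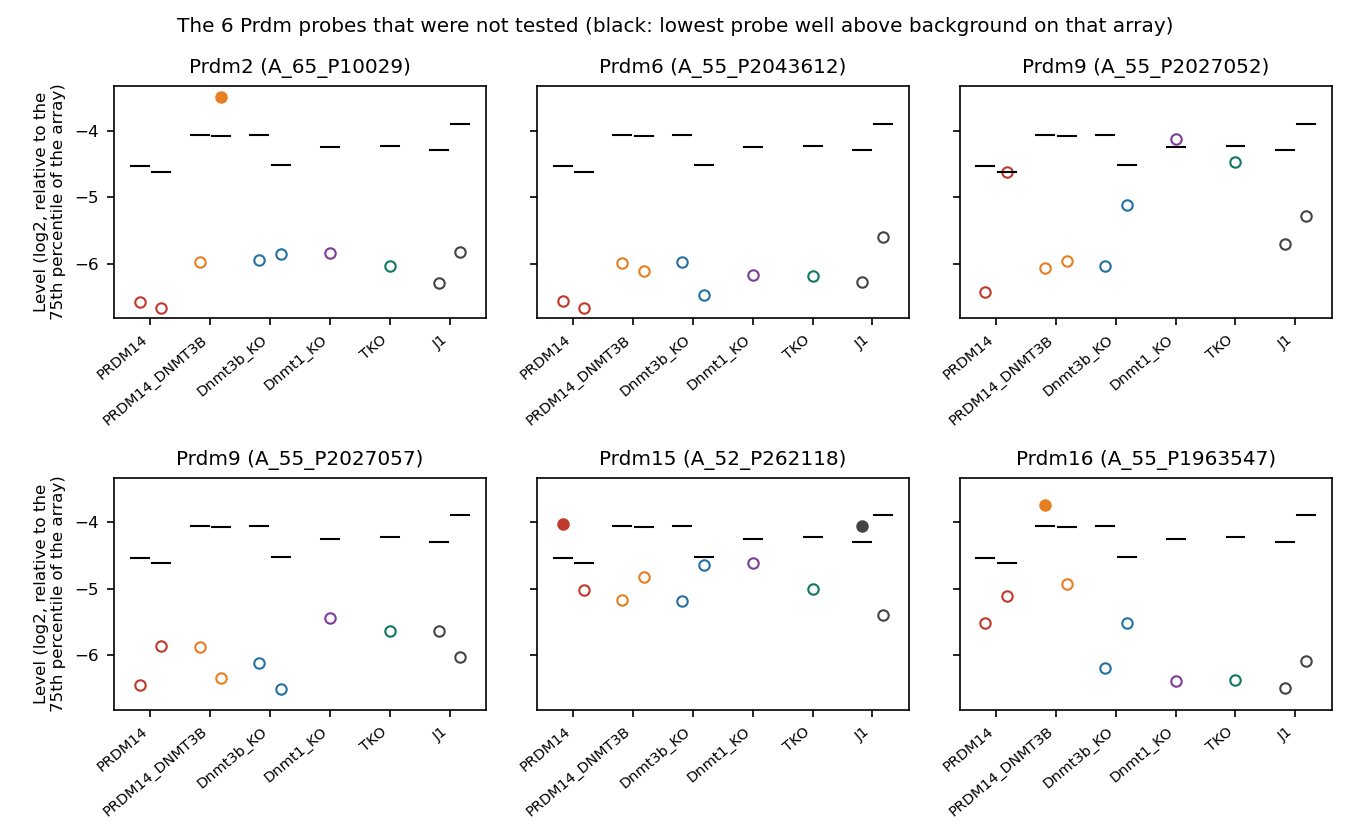
Levels of the 6 Prdm probes that were not tested (log2, relative to the 75th percentile of the array), by array and group; filled circles are well above background, and black bars mark the lowest level of any probe well above background on that array. Prdm6 and both Prdm9 probes have 0 filled circles of 10, and Prdm2 and Prdm16 have 1 each.

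Of other Prdm genes on the array, 3 tested ones are given by the probe with the highest mean. A further Prdm12 probe was well above background on 0 of 10 arrays and was not tested. The tested probe of Prdm12, a gene needed for pain-sensing neurons, was not well above background in J1. It was at least 3.17-fold higher in PRDM14 and at least 2.22-fold higher in PRDM14_DNMT3B (limma adjusted p = 0.000334 and 0.00081, the second 0.0706 with the normexp correction). Prdm13, a regulator of spinal and retinal neurons, was likewise dim in J1 and was at least 8.05-fold higher in TKO and at least 3.50-fold higher in Dnmt1_KO (limma adjusted p = 0.000451 and 0.00128). Both probes of Prdm11 rose in PRDM14 against J1, the brighter by 0.70 and the dimmer by 2.45 log2 units (limma adjusted p = 0.0254 and 0.00333). They disagreed in PRDM14_DNMT3B, where its brighter probe did not pass (-0.34, limma adjusted p = 0.192) and its dimmer probe, well above background on 1 of the 2 J1 arrays, rose by 3.22 (limma adjusted p = 0.00123). Mecom and Prdm8 were not tested.

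Partners and targets of the family were taken from short lists. Of 14 corepressors that Prdm proteins recruit, 2 rose and 1 fell in PRDM14, below the 38.1% of all tested probes that changed, with a median of 0.22 against -0.028 over all tested probes. Prmt5 was at 5.11 and 4.93 in PRDM14, 4.76 and 4.66 in PRDM14_DNMT3B, 4.51 and 4.40 in Dnmt3b_KO, 4.20 in Dnmt1_KO and 4.55 in TKO, against 3.56 and 3.42 in J1. It rose in all 5 groups, by 0.71 log2 units in Dnmt1_KO to 1.53 in PRDM14 (limma adjusted p = 0.0157 and 0.000293). Cbfa2t3, a paralog of the Prdm14 partner Cbfa2t2, rose by 2.05 in PRDM14 (limma adjusted p = 0.000204). Cbfa2t2 itself rose by 0.52 in PRDM14_DNMT3B (limma adjusted p = 0.0117), and in PRDM14 its difference of 0.29 did not pass. In Dnmt1_KO 1 of the 14 rose and 3 fell, while 26.4% of tested probes changed. Of the 3, Eed, a Polycomb subunit (-1.04, limma adjusted p = 0.0063), kept its call under the other scalings. Ctbp2 and Ehmt2 lost theirs with quantile normalization (adjusted p = 0.0769 and 0.399) and with the deposited value table (0.0842 and 0.454).

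Of 5 genes that Prdm14 represses in mouse embryonic stem cells, 2 rose and 2 fell in PRDM14, where 38.1% of all tested probes changed. Dnmt3b was at 5 and 5.05 in PRDM14 and at 4.10 and 4.17 in PRDM14_DNMT3B, against 7.61 and 7.57 in J1, and fell by 2.56 and by 3.45 log2 units (limma adjusted p = 3.75e-05 and 2.97e-05). The sources used here do not say whether its probe reads the Dnmt3b1 transgene. Dnmt3l, a cofactor of the de novo methyltransferases, fell by 0.88 in PRDM14 (limma adjusted p = 0.00113), while Dnmt3a and the receptor gene Fgfr1 rose by 0.37 and 0.46 (limma adjusted p = 0.0316, or 0.082 with the normexp correction, and 0.0136), and Fgfr2 did not pass. In Dnmt3b_KO, which has no Prdm14 transgene, Dnmt3l also fell (-0.67, limma adjusted p = 0.00754) and Dnmt3a also rose (0.50, limma adjusted p = 0.022). Fgfr1 and Fgfr2 did not pass there.

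Most listed germ cell genes that act with or after Prdm1 and Prdm14 were higher in both transgenic lines. Some were also higher in the knockouts. Of 8 listed, 7 rose and 0 fell in PRDM14 and 7 rose and 0 fell in PRDM14_DNMT3B, with medians of 1.38 and 1.58 against -0.028 and -0.071 over all tested probes, of which 20.1% and 18.4% rose. Nanos3, which protects germ cells from death, was at 4.22 and 4.17 in PRDM14 and at 2.88 and 2.76 in PRDM14_DNMT3B, against 1.17 and 1.15 in J1. Kit, the receptor for stem cell factor, was at 2.51 and 2.77 in PRDM14 and at 2.63 and 2.72 in PRDM14_DNMT3B, against 0.02 and 0.15 in J1. Tfap2c, which acts with both genes in specification, rose by 1.45 in PRDM14 (limma adjusted p = 0.000179). In TKO it fell by 1.79 (limma adjusted p = 0.000579). Dnd1 rose in all 5 groups, by 0.96 to 1.78. In Dnmt3b_KO 2 rose and 2 fell (Dppa3 by -1.09 and Ifitm3 by -0.96), where 19.5% of all tested probes changed. The median of the 8 was 0.65 in Dnmt1_KO and 0.39 in TKO, against -0.161 and -0.085 over all tested probes. Dazl differed from J1 by 1.80 in PRDM14, 1.51 in PRDM14_DNMT3B, 1.60 in Dnmt1_KO and 3.44 in TKO. Ddx4 was not called against J1 in any group.

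Of 13 tested genes of Prdm9 and meiotic recombination, 5 rose and 4 fell in PRDM14, where 38.1% of all tested probes changed, with a median of 0.09. In TKO 6 rose and 4 fell, where 26.8% of all tested probes changed, with a median of 0.50 against -0.085 over all tested probes. The cohesin subunits Smc1b, Rec8 and Stag3 and the chromosome axis gene Hormad1 rose in all 5 groups, although in Dnmt3b_KO the Smc1b and Hormad1 calls ended with the normexp correction (adjusted p = 0.401 and 0.13). Smc1b was at -0.60 and -0.55 in PRDM14, -1.80 and -1.76 in PRDM14_DNMT3B, -2.62 and -2.46 in Dnmt3b_KO, 1.00 in Dnmt1_KO and 1.15 in TKO, against -3.29 and -3.10 in J1. Sycp3, a component of the synaptonemal complex, and Ewsr1, a Prdm9 partner, fell in all 5 groups, Sycp3 by 0.79 to 1.76 log2 units, and the Ewsr1 call in TKO ended with quantile normalization (adjusted p = 0.0619) and with the deposited value table (0.0696). Rec114, which takes part in break formation, fell in PRDM14, PRDM14_DNMT3B and Dnmt3b_KO (-1.08, -1.10 and -2.05) and rose in Dnmt1_KO and TKO (1.97 and 2.57).

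**Figure D5:**
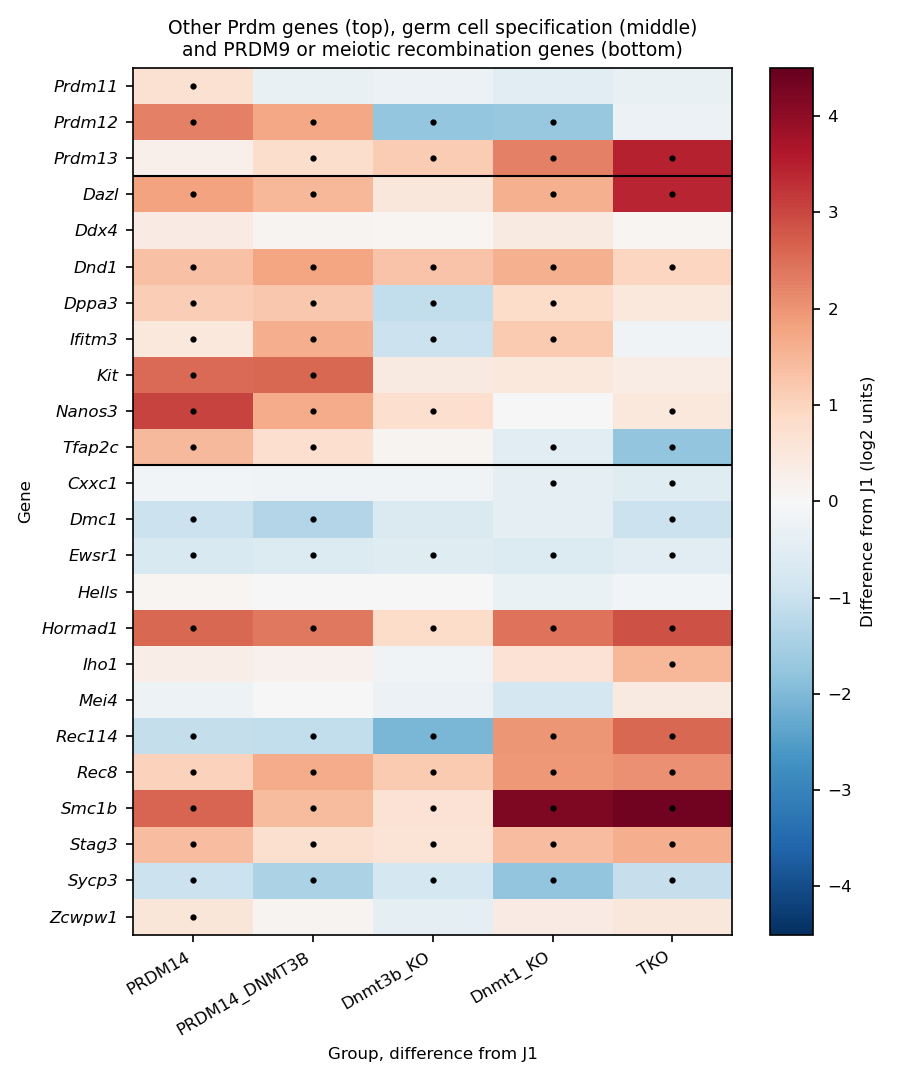
Differences from J1 (log2 units, red higher and blue lower) of the other Prdm genes, germ cell specification genes and genes of Prdm9 or meiotic recombination in the 5 other groups; black dots mark an adjusted p under 0.05. Hormad1, Rec8, Smc1b and Stag3 carry red cells with dots in all 5 columns, of which those of Hormad1 and Smc1b in Dnmt3b_KO lost the call with the normexp correction.

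Of 5 tested genes that Prdm1 represses in lymphocytes, 1 rose and 0 fell in PRDM14, 2 rose and 0 fell in PRDM14_DNMT3B, and 0 changed in Dnmt3b_KO by limma (1 of 5 at an unadjusted p under 0.05), the 3 groups with called Prdm1 rises and replicates. Over all tested probes 20.1% rose in PRDM14 and 18.4% in PRDM14_DNMT3B, and 38.1%, 38.4% and 19.5% changed in the 3 groups. In TKO, a single array where Prdm1 was also called, Bcl6 differed from J1 by -0.67 log2 units. Pax5, not well above background in J1, was at least 1.93-fold higher in TKO. Id3, an inhibitor of helix-loop-helix factors, rose by 1.44 in PRDM14 and by 1.31 in PRDM14_DNMT3B (limma adjusted p = 0.00184 and 0.00259). Spib rose by 1.57 in PRDM14_DNMT3B (limma adjusted p = 0.00919), and in PRDM14 its difference of -0.53 did not pass. Myc did not pass in PRDM14 (-0.05), PRDM14_DNMT3B (-0.22) or Dnmt3b_KO (-0.30) and fell in Dnmt1_KO and TKO (-1.20 and -0.98, limma adjusted p = 0.00131 and 0.00211). Of 3 tested brown fat genes tied to Prdm16, 0 rose and 2 fell in PRDM14, where 38.1% of all tested probes changed, Cebpb by 1.11 and Cidea by 0.39 log2 units (limma adjusted p = 0.000536 and 0.0414, the second 0.0569 with quantile normalization and 0.0511 with the deposited value table). Cebpb and Cidea also fell in PRDM14_DNMT3B (-0.70 and -0.50, limma adjusted p = 0.00267 and 0.0181), where 38.4% of all tested probes changed. On the single array of Dnmt1_KO they went the other way, by 0.69 and 0.57.

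Among genes whose group means ranged over at least 1 log2 unit, Pgrmc1 (r = 0.992), a probe without a symbol (r = 0.991) and Ica1 (r = 0.99) followed Prdm14 most closely over the 10 arrays, and Pdss2 (r = 0.98), Fbxo10 (r = 0.98) and Tom1l2 (r = 0.979) followed Prdm1. For Prdm10 the closest named gene was Zscan29 (r = 0.856). These values describe arrays that share cell lines and slides and carry no test. The genes given for Prdm14 and for Prdm1 were the closest among 11109 candidates. The Prdm14 levels include both PRDM14_DNMT3B arrays, where its probe was not well above background. Pgrmc1, a membrane haem-binding protein, was at 2.33 and 2.14 in PRDM14 and 1.66 and 1.73 in PRDM14_DNMT3B, against 3.28 and 3.31 in J1.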

How the data were processed

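RNA of mouse embryonic stem cells was amplified and labelled with Cy3 for 1-colour Agilent arrays, per the labels' protocols. The deposited scanner files hold a fluorescence intensity per spot, made with Agilent Feature Extraction 10.7.3.1 per the file headers and not normalized between arrays. The value table deposited by the authors, read as log2 values with an unknown scaling, differed from quantile-normalized log2 intensity by at most 0.246 and had a median of 4.243 in each column. The submitters' processing notes name limma.

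Outlier spots were left out of the 59305 non-control spots per array, log2 intensity was taken relative to the 75th percentile of the array, and spots of a probe were averaged. Of 55681 probes, 33113 had at least 1 group with all its arrays well above background, 13 of these had missing values, and 33100 were tested. All 10 arrays entered 1 fit (limma 3.58.1, R 4.3.3) with group as its only term. The fit had 4 residual and 1.74 prior degrees of freedom. Calls are at a Benjamini-Hochberg adjusted p under 0.05 over all tested probes. The code was tested on simulated data. Precision is limited by the small number of arrays.

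Same-numbered replicates deviated together from their group means (r of 0.25 to 0.486 over the 6 pairs of groups). For J1, PRDM14_DNMT3B and Dnmt3b_KO the number is also the slide. The numbers were therefore taken to pair the arrays in the alternative with a replicate block. The main fit, with group as its only term, did not use this pairing. In PRDM14 against J1 the replicate block gave 15153 called probes, against 12619 in the main fit. Slides 1 and 2 were each read in 2 scan passes.

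Every member probe is named. Other genes are named from lists of other Prdm genes, corepressors, genes repressed by Prdm14, germ cell specification, Prdm9 and meiotic recombination, and targets of Prdm15, Prdm16 and Prdm1, each gene by its brightest tested probe, and neighbours and genes with a similar pattern by position and by correlation. The members and the lists were chosen with earlier results of these data known. A further gene of the family outside the 9 members is not reported here.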

Additional observations from a re-analysis of the deposited data

How the results depend on the processing

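The calls of Prdm14 and Prdm1 in PRDM14, PRDM14_DNMT3B and Dnmt3b_KO against J1 kept their direction and their side of the threshold in all alternatives that tested them, and no called member changed sign in any alternative. The number of members called moved as follows. Against 2 called it was 3 in PRDM14 against J1 (deposited value table, 1 probe per gene), PRDM14_DNMT3B against J1 (no filter on dim probes), Dnmt3b_KO against J1 (slide as a fixed block), PRDM14 against Dnmt3b_KO (replicate block) and TKO against J1 (quantile normalization, deposited value table, 1 probe per gene, trend of the spread over the level, slide as a fixed block). In Dnmt1_KO against J1 (1 called) it was 0 with the normexp correction and without a filter on dim probes, 2 with the deposited value table, with probes above background on all 10 arrays and with a trend of the spread over the level, and 0 to 0 with a replicate left out. With probes above background on all 10 arrays, which leaves out Prdm14 and Prdm10, it was 1 in Dnmt3b_KO against J1, 1 in PRDM14_DNMT3B against J1 and 0 in PRDM14_DNMT3B against Dnmt3b_KO. Without a filter on dim probes it was 1 in PRDM14 against Dnmt3b_KO, 1 in PRDM14_DNMT3B against PRDM14 and 1 in TKO against J1, each with 2 called otherwise. With the slide as a random block it was 1 in PRDM14 against Dnmt3b_KO, and with the slide as a fixed block 2 in PRDM14_DNMT3B against Dnmt3b_KO. With a replicate left out it was 1 to 2 in TKO against J1, PRDM14_DNMT3B against PRDM14 and PRDM14 against Dnmt3b_KO. The replicate block changed 1 member call, that of Prdm1 in PRDM14 against Dnmt3b_KO (-0.47, adjusted p = 0.0201), and left the other calls of the groups that carry replicate numbers as they were. Dnmt1_KO and TKO carry no replicate number in their labels and entered no replicate block, but share slide 1 with J1 replicate 1. With the slide as a fixed block Prdm1 in Dnmt1_KO passed (0.91, adjusted p = 0.0204), the Prdm4 call there ended (-0.49, adjusted p = 0.0944), and Prdm10 in Dnmt3b_KO (adjusted p = 0.0487) and in TKO (-1.19, adjusted p = 0.0416) passed. Where not stated, the cause was not tested. The gene lists were run under other scalings, an alternative chosen after seeing the data: of 130 calls against J1, 123 held with quantile normalization, 119 with the normexp correction and 123 with the deposited value table, and 0 changed direction.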
